A study of Mus musculus with 15 samples.

Results

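The genes described here encode angiotensin receptors and other proteins of the renin-angiotensin system. They were a listed set of 9 genes, taken by symbol: Agtr1a, Agtr2, Agt, Ace, Agtrap, Atp6ap2, Mas1, Lnpep and Arrb2. Of these, 7 had a row among the 14337 genes of the expression table, and Agtr2 and Mas1 had none. Tests were limited to the 12848 genes whose mean over all libraries reached a log2 RPKM of 0, and 6 of the listed genes were among them. Agt was measured but lay below that level.

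The renin-angiotensin system makes a peptide hormone by successive cuts. Renin cleaves angiotensinogen, the product of Agt, and angiotensin-converting enzyme, the product of Ace, turns the resulting peptide into angiotensin II (AngII). In heart muscle AngII acts mainly through the AT1 receptor, a Gq-coupled receptor whose stimulation promotes cell growth, and proteins such as beta-arrestins and the receptor-associated protein encoded by Agtrap take the receptor from the cell surface.

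RNA-Seq of poly(A)-captured RNA was carried out on primary cardiomyocytes taken from the hearts of wild-type C57/BL6 mice aged 1 to 3 days. All cells were cultured for 5 days, starved for 24 h in medium with 0.5% FBS and kept to day 8. Control cells received saline (3 libraries, S1 to S3), AngII cells 1 µM AngII from day 6 with a repeat on the next day (4 libraries, S5 to S8), ldCil cells 20 nM cilengitide, a cyclic RGD peptide that binds RGD-binding integrins, given as a low dose (4 libraries, S9 to S12), and AngII + ldCil cells both agents (4 libraries, S13 to S16). The labels do not say whether libraries of a group came from separate cultures or litters, so p-values here reflect the variation between libraries alone, and that may be technical.

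The values are log2 RPKM, that is, log2 reads scaled to gene length and library size, after conditional quantile normalisation by the authors. That method evens out gene length, GC content and the distribution of values, and the median gene stood at 3.59 log2 RPKM in each of the 15 libraries. Read counts were not used here, so the depth behind each value is unknown. Among the marker genes looked for, the highest were cardiomyocyte genes (Actc1 at a mean of 11.7, Myh6 at 11.2 and Tnnt2 at 11.1 log2 RPKM). Fibroblast genes (Col1a1 at 9.81, Col1a2 at 9.07, Col3a1 at 8.74) and genes of the smooth muscle and pericyte list (Acta2 at 10.1, Tagln at 8.58, Pdgfrb at 5.72) were also present. In the latter list Myh11 and Rgs5 were low (2.07 and 2.08), and Kcnj8 had no row. Endothelial genes (Eng at 5.90, Flt1 at 3.99, Cdh5 at 1.99) and macrophage genes (Lyz2 at 7.37, Cd68 at 4.06, Csf1r at 2.96) were present too. The cultures were thus a mixture, and in such bulk RNA fewer cells of a type and less RNA per cell cannot be told apart. All 5 erythroid genes looked for had no row.

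Among the measured members Agt and Ace, the substrate and the enzyme of the pathway, had the widest ranges over the 15 libraries, and their start regions are therefore shown. The bases are the 250 before the annotated start of transcription on the gene's strand, 5′ to 3′, from RefSeq promoters of GRCm38.p6. For Agt this is chr8:124569707-124569956 on the minus strand, and for Ace, upstream of its first exon, chr11:105967698-105967947 on the plus strand. Capitals mark matches, on either strand, to a TATA box (TATAAA), a GC box (GGGCGG), a STAT palindrome (TTCNNNGAA) and a CAAT box (CCAAT).
Agt: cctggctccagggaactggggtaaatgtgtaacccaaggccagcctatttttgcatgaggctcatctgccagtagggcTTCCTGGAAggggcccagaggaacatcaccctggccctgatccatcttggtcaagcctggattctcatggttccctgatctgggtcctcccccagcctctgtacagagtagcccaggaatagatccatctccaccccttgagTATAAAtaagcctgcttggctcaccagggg
Ace: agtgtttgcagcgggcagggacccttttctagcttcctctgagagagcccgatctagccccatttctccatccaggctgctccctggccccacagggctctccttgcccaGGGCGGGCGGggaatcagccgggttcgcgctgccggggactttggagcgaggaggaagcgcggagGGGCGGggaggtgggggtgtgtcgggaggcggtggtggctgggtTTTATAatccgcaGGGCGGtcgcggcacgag
In Agt the TATA box began 30 bases before the start and a STAT palindrome 172 bases before it. In Ace a TATA box, read on the opposite strand, lay 31 bases before the start, together with 4 GC boxes at 140, 136, 75 and 18 bases before it, the first 2 of which overlap. The Agt window held 55.6% G and C and 0 CpG dinucleotides, and the Ace window 67.2% and 19. Of 32851 RefSeq promoter windows of 300 bases, which run on 50 bases past the start, 13.6% held a TATA box on either strand, 35.7% a GC box, 8.30% the STAT palindrome and 37.4% a CAAT box. Windows were given for 7 of the 9 members, Agtr1a and Arrb2 not among them. These matches describe the letters only.

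In GRCm38 with GENCODE M21, the measured members lay at chr13:30336441-30382867 (Agtr1a, plus strand), chr8:124556534-124569706 (Agt, minus), chr11:105967945-105989964 (Ace, plus), chr4:148077061-148088031 (Agtrap, minus), chrX:12587801-12617049 (Atp6ap2, plus), chr17:17521410-17625050 (Lnpep, minus) and chr11:70432635-70440828 (Arrb2, plus). Each value covers the exons of the whole gene. Ace shares 295 exonic bases, 5.58% of its exonic length, with the antisense gene Gm11651, and since the strandedness of the counting is not given in the sources used here, reads from that stretch cannot be told apart. Arrb2 shares 64 exonic bases (2.25%) with Mir7115. Few stretches of 50 bases in the members' transcripts also occurred in other genes, from 0% in Agt and Lnpep to 3.77% in Ace, and Agtr1a shared 1.27% of its 50-base stretches, including some with its close copy Agtr1b.

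Levels per length separated the members into groups. Over the 15 libraries the mean was 5.10 log2 RPKM for Atp6ap2, 5.08 for Lnpep and 4.95 for Agtrap. These 3 genes stood above the table's median gene, at the 78.2, 77.8 and 75.8 percentiles of all genes, and the gaps between neighbours (0.02 and 0.13) were smaller than their SDs over libraries (0.318 to 0.417, n = 15). Ace followed at 3.75 ± 0.616 (SD, n = 15), 1.20 below Agtrap, and Arrb2 at 1.80 ± 0.488. The receptor gene Agtr1a was lower, at 1.22 ± 0.286 and the 20.1 percentile, and its library values overlapped those of Arrb2. Agt stood lowest by 2.82 log2 units, at -1.60 ± 1.87 and the 0.418 percentile. In the plot of the members' levels by library, the panels of Atp6ap2, Lnpep and Agtrap share a height near 5 log2 RPKM while that of Agt reaches below -4.

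**Figure D1:**
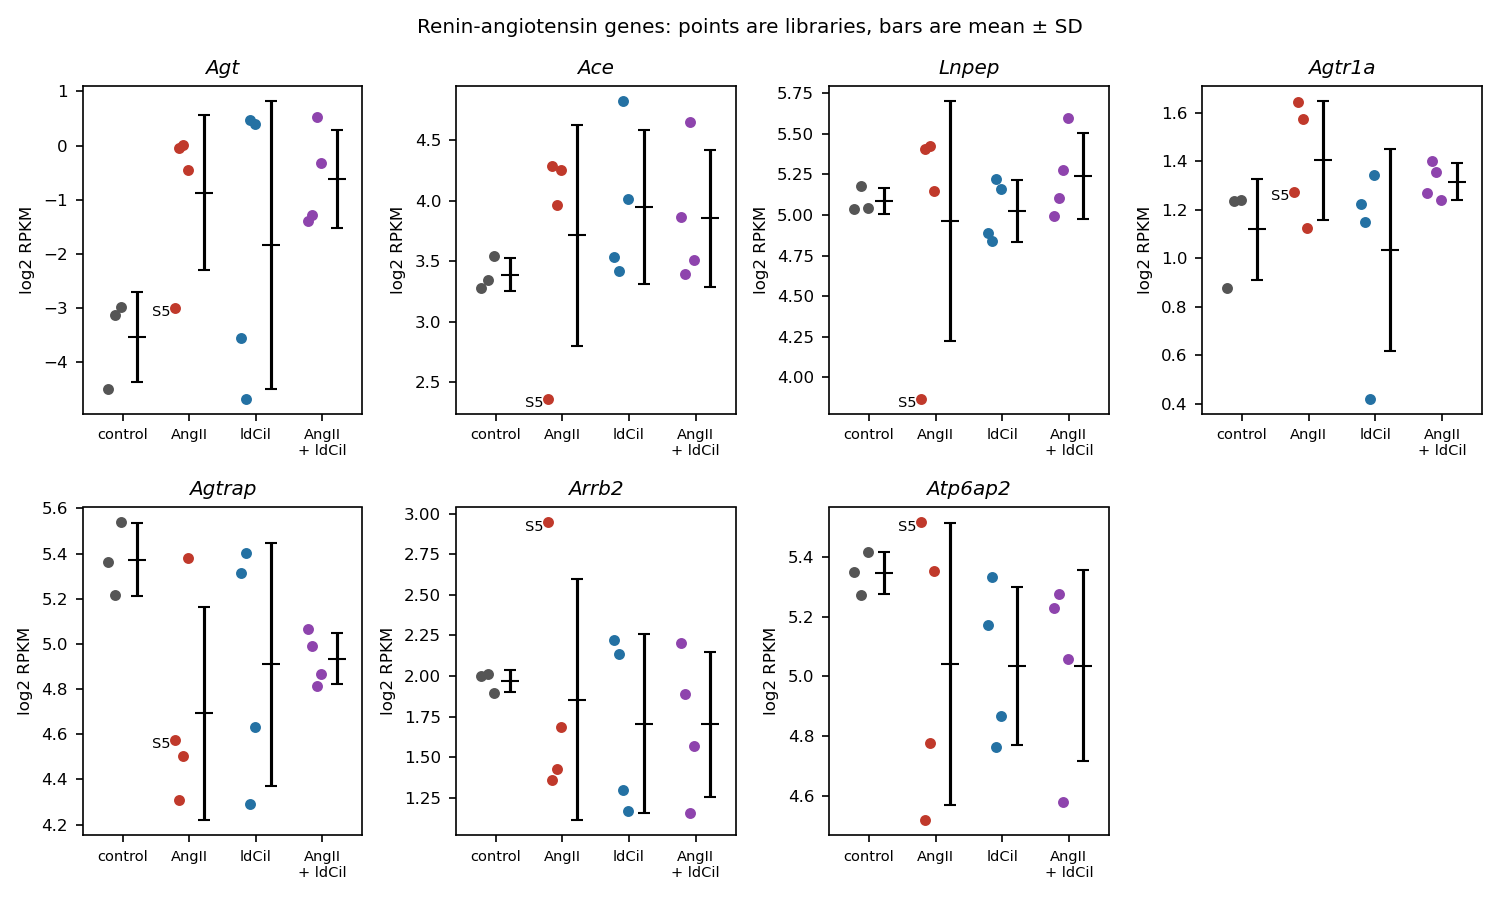
Log2 RPKM (vertical axis, own range in each panel) of the 7 measured renin-angiotensin genes in the control, AngII, ldCil and AngII + ldCil libraries; points are libraries, and bars the mean ± SD of 3 or 4 libraries. The AngII library S5, labelled, is the lowest of all 15 for Ace (2.36) and Lnpep (3.87) and the highest for Arrb2 (2.95) and Atp6ap2 (5.52).

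The first question was whether the receptor genes differed under exposure to their own ligand. Agtr1a, which encodes the main AT1 receptor of the mouse, was the only gene of a G protein-coupled angiotensin receptor with a row. Its values were 0.88, 1.24 and 1.24 log2 RPKM in control libraries S1 to S3, 1.27, 1.64, 1.57 and 1.12 in AngII libraries S5 to S8, 1.22, 1.15, 0.42 and 1.34 in ldCil libraries S9 to S12, and 1.27, 1.40, 1.36 and 1.24 in AngII + ldCil libraries S13 to S16. The AngII libraries S6 and S7 were the highest and the ldCil library S11 the lowest, and the groups overlapped, though the lowest AngII + ldCil value only equalled the highest control value. The AngII mean exceeded the control mean by 0.28 log2 (SE 0.245, 95% confidence interval -0.24 to 0.81), an excess that did not pass limma's test (adjusted p = 0.822) and ran from 0.16 to 0.38 with single libraries left out. Between AngII + ldCil and ldCil the difference was 0.28 (interval -0.20 to 0.77, adjusted p = 0.974 from limma), and 0.08 without S11, while between AngII + ldCil and AngII it was -0.09 (-0.57 to 0.40). The interaction, which asks whether AngII acted differently with ldCil present, was -0.0028 with an interval from -0.72 to 0.71. Agtr1b, the second mouse gene for this receptor, had no row either, nor had Agtr2, which encodes the AT2 receptor, or Mas1, which encodes a receptor of a shorter angiotensin peptide.

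Agt, the gene of the hormone precursor, which is made chiefly by liver, was the most variable member and the faintest. It measured -4.49, -3.14 and -2.99 log2 RPKM in the control libraries, -3.00, -0.04, 0.02 and -0.45 with AngII, -3.55, -4.68, 0.47 and 0.39 with ldCil, and -1.40, -1.29, 0.53 and -0.33 with AngII + ldCil. All AngII + ldCil libraries stood above all control libraries, and 13.5% of the 12848 genes tested likewise had no overlap between these groups. S5 of the AngII group lay among the control values, as did the ldCil library S9, while S10 lay below them all. On the linear scale the range ran from 0.0391 RPKM in S10 to 1.44 RPKM in S15. Group means were -3.54 ± 0.829 (SD, n = 3) in control, -0.87 ± 1.44 (n = 4) with AngII, -1.84 ± 2.67 (n = 4) with ldCil and -0.62 ± 0.907 (n = 4) with both.

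Since Agt lay below the level required for the fit across genes, its groups were compared with a two-sided exact permutation test over libraries, 5 comparisons in all. The AngII + ldCil mean was 2.92 log2 above control with an exact p of 0.0286, the smallest value the 35 assignments of 4 and 3 libraries allow (0.143 adjusted over the 5), and the AngII mean was 2.67 above control with an exact p of 0.0857 (0.214 adjusted). For ldCil against control the difference was 1.70 (exact p = 0.4), for AngII + ldCil against AngII 0.25 (exact p = 0.8) and for AngII + ldCil against ldCil 1.22 (exact p = 0.4). Without S5 the AngII mean was 3.38 above control (exact p = 0.1, the smallest possible with 3 against 3) and AngII + ldCil minus AngII was -0.46. With 1 added to each RPKM value, which damps low values, AngII + ldCil exceeded control by 0.64 (exact p = 0.0857). When limma was fitted to all 14337 genes, with no filter, Agt differed by 2.92 for AngII + ldCil against control (interval 0.37 to 5.46, unadjusted p = 0.0276, adjusted p = 0.662) and by 2.67 for AngII against control (interval 0.12 to 5.22, unadjusted p = 0.0412, adjusted p = 0.601). In that fit 7.46% and 8.20% of all genes had an unadjusted p under 0.05 in these comparisons. The lower end of the scale itself differed between libraries: the lowest value of any gene was -6.48 log2 RPKM in S9 and -2.82 in S8, and Agt stood at the 0.0767 percentile of S1 and the 12.5 percentile of S12. The part of this in the Agt differences was not tested.

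Ace encodes the enzyme that forms AngII from its inactive precursor peptide and is known from vascular endothelium. It read 3.28, 3.34 and 3.54 log2 RPKM in control libraries, 2.36, 4.28, 3.96 and 4.25 with AngII, 3.54, 3.42, 4.82 and 4.02 with ldCil, and 3.86, 3.39, 4.65 and 3.51 with AngII + ldCil. The 3 control libraries lay close together, the AngII libraries S6, S7 and S8 lay above them and S5 below. The mean difference between AngII and control was 0.33 (SE 0.445, interval -0.63 to 1.28, adjusted p = 0.894 from limma). Without S5 it was 0.78 (SE 0.349, unadjusted p = 0.0439 from limma), without S6 0.14 and without S8 0.15. Against control, ldCil stood 0.56 higher (interval -0.39 to 1.51, 0.27 without S11) and AngII + ldCil 0.46 higher (interval -0.49 to 1.42, 0.20 without S15), neither past the test. The 7 endothelial marker genes, all in the table, summed to 87.2 to 101 RPKM in control, 75.3 to 120 with AngII, 81.2 to 103 with ldCil and 68.5 to 131 with AngII + ldCil. Eng, at a mean of 5.90 log2 RPKM with Flt1 next at 3.99, made up most of these sums. The library with the lowest Ace, S5, had the highest endothelial sum of the AngII group (120 RPKM), and the libraries with the highest Ace, S11 and S15, had sums of 81.2 and 73.3 RPKM. What part endothelial cells had in the Ace values was not tested.

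Lnpep encodes insulin-regulated aminopeptidase, a membrane peptidase that binds the angiotensin fragment AngIV. Its values were 5.04, 5.18 and 5.04 log2 RPKM in control, 3.87, 5.41, 5.43 and 5.15 with AngII, 4.89, 4.84, 5.22 and 5.16 with ldCil, and 4.99, 5.10, 5.28 and 5.60 with AngII + ldCil. Apart from S5 all libraries lay between 4.84 and 5.60. S5 decided the sign of the comparison of AngII with control, which was -0.12 with it (SE 0.293, interval -0.75 to 0.50, adjusted p = 0.943 from limma) and 0.24 without it (unadjusted p = 0.145). AngII + ldCil minus AngII was likewise 0.28 with S5 (interval -0.30 to 0.86) and -0.09 without it.

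Atp6ap2 encodes the prorenin receptor, which is also an accessory protein of the vacuolar proton pump. The control libraries held 5.35, 5.27 and 5.42 log2 RPKM, the AngII libraries 5.52, 4.52, 4.78 and 5.35, the ldCil libraries 5.17, 5.33, 4.76 and 4.87, and the AngII + ldCil libraries 5.23, 5.28, 4.58 and 5.06. Each treated group mean stood below control (log2 differences of -0.30, -0.31 and -0.31 for AngII, ldCil and AngII + ldCil), with intervals that included 0 (-0.80 to 0.19 for AngII) and treated libraries among the control values. Without S5 the AngII difference was -0.46 (unadjusted p = 0.0588 from limma) and without S6 it was -0.13, and the AngII + ldCil difference was -0.16 without S15. The 2 AngII-exposed groups differed by -0.0060 log2 (interval -0.47 to 0.45).

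Agtrap, whose product binds the AT1 receptor and takes it into the cell, had the smallest p of the members. It measured 5.36, 5.22 and 5.54 log2 RPKM in control, 4.58, 4.31, 4.50 and 5.38 with AngII, 5.31, 5.40, 4.29 and 4.63 with ldCil, and 5.07, 4.99, 4.82 and 4.87 with AngII + ldCil. With AngII, 3 libraries lay below all control libraries and S8 lay among them, and with AngII + ldCil all 4 lay below. The AngII mean was 0.68 log2 under control (log2 difference -0.68, SE 0.268, interval -1.25 to -0.11), equal to 62.4% of the control level, with an unadjusted p of 0.0234 and an adjusted p of 0.782 from limma. That unadjusted p was 0.0780 without the control library S3, 0.0698 without S6, 0.0548 without S7 and 0.0021 without S8, where the log2 difference was -0.91. For ldCil the difference from control was -0.46 (interval -1.04 to 0.11, -0.26 without S11) and for AngII + ldCil it was -0.44 (interval -1.01 to 0.14, adjusted p = 0.849 from limma). AngII + ldCil against AngII gave 0.24 (interval -0.29 to 0.77), and the interaction 0.70 (SE 0.366, interval -0.08 to 1.49, adjusted p = 0.958 from limma). The comparisons with control share the same 3 control libraries and are not independent of each other.

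Arrb2 encodes beta-arrestin 2, which uncouples the stimulated AT1 receptor from its G protein. Its values were 2.0, 2.01 and 1.89 log2 RPKM in control, 2.95, 1.36, 1.43 and 1.68 with AngII, 2.22, 2.14, 1.30 and 1.17 with ldCil, and 2.20, 1.89, 1.16 and 1.57 with AngII + ldCil. S5 was again apart, above every other library, while the remaining AngII libraries lay below all control libraries. AngII minus control was -0.12 (SE 0.384, interval -0.94 to 0.71, adjusted p = 0.960 from limma), and -0.48 without S5 (unadjusted p = 0.152).

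**Figure D2:**
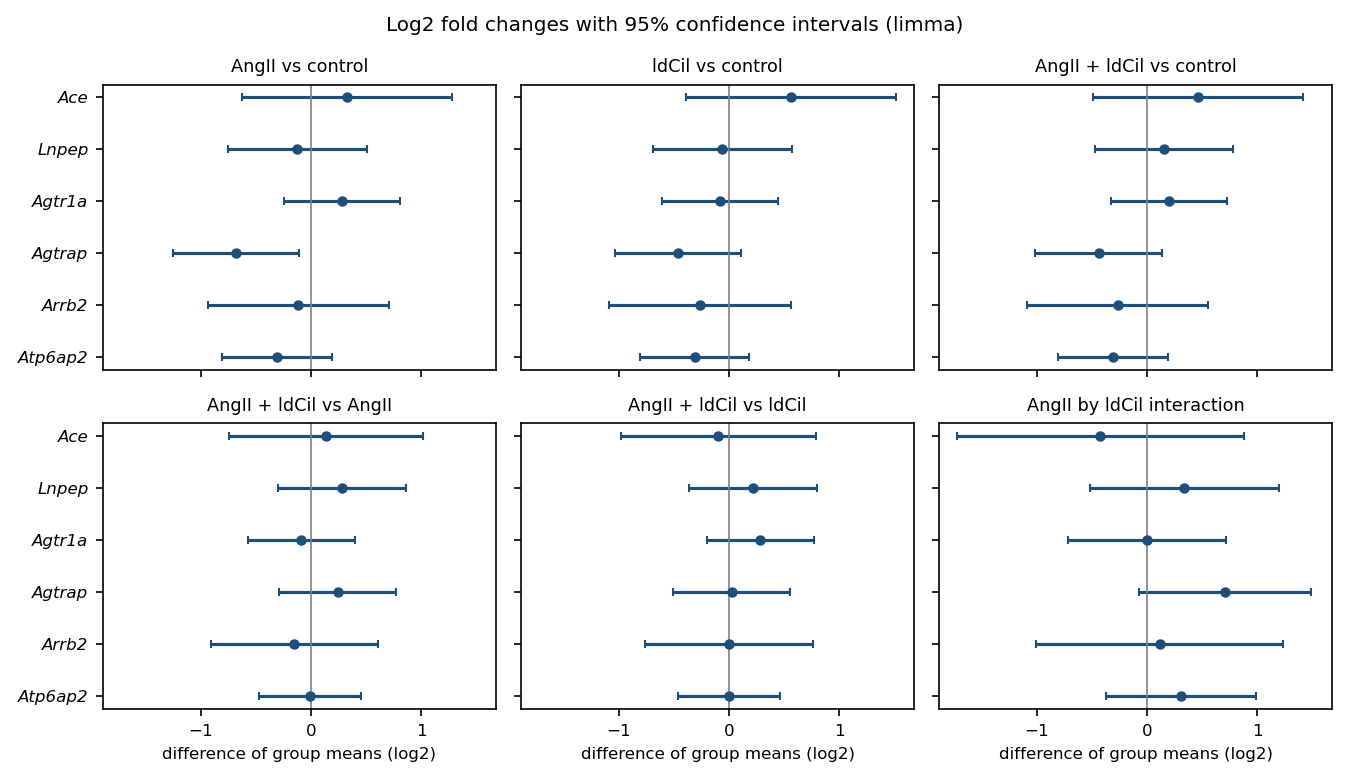
Differences of group means in log2 RPKM (horizontal axis) for the 6 tested members in the 5 pairwise comparisons and the AngII by ldCil interaction; points are limma estimates and bars their 95% confidence intervals. The Agtrap interval for AngII against control, -1.25 to -0.11, is the only one that does not reach 0.

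No member passed an adjusted p of 0.05 from limma in any comparison, and neither did any other gene (0% of the 12848 tested in each of the 6). The smallest adjusted p over all genes was 0.782 for AngII against control and higher in the others. This turned on how libraries were weighted: with each library weighted by its scatter, 6 of 6 members passed for AngII against control, as did 6245 of all genes (48.6%). The weights were 7.01, 0.974 and 1.64 for S1 to S3 and 0.113, 1.65, 3.39 and 0.363 for S5 to S8. The control mean thus leaned on S1 and the AngII mean on S6 and S7. On the first principal component, described below, S1 scored 37.3 and S6 and S7 -41.7 and -39.4. The part of that split in the weighted result was not tested. At an unadjusted p under 0.05, 1 of 6 members, Agtrap, was called for AngII against control, where 6.04% of all genes were called, and a single call among 6 genes is given as a count only. In the other comparisons 0 of 6 members were called, beside 1.95% of genes for ldCil against control, 5.62% for AngII + ldCil against control, 2.58% for AngII + ldCil against AngII, 5.07% for AngII + ldCil against ldCil and 3.86% for the interaction. At an unadjusted p under 0.01 no member was called, and the shares of all genes were 0.918%, 0.257%, 0.864%, 0.335%, 0.747% and 0.584% in the same order. Agtrap was the 1 tested member whose AngII + ldCil and control libraries did not overlap, as for 13.5% of all genes, and 0 of 6 members had no overlap between AngII and control, against 8.74% of genes. The median log2 difference over the 6 members was -0.12 for AngII against control (all genes 0.02), -0.17 for ldCil against control (0.0014), -0.05 for AngII + ldCil against control (0.05) and 0.07 for AngII + ldCil against AngII (0.01). The plot of differences with their intervals shows the widest bars for Ace and Arrb2 and the narrowest for Atp6ap2 and Agtr1a.

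Members also differed widely between libraries of 1 treatment. The first principal component of all genes tested took up 49.0% of their variance and cut across the treatments: S6, S7, S11, S12 and S15, from 3 groups, had scores from -42.0 to -38.0, and S1, S3, S5, S9 and S10, also from 3 groups, scores from 37.3 to 47.9. The 5 highest Agt values, the 5 lowest Atp6ap2 values and the 5 lowest Arrb2 values were those of S6, S7, S11, S12 and S15. The summed macrophage markers (6 of 6 in the table) stood at 138 to 182 RPKM in these libraries, at 43.0 in S16 and at 180 to 478 in the remaining ones, and the part of such differences in the members' values was not tested. The summed fibroblast markers (8 of 8) stood at 2127 to 2258 RPKM in the same 5 libraries, at 2115 in S5, at 932 in S16 and at 2631 to 3529 in the others. The endothelial sums stood at 73.3 to 85.5 RPKM in the 5, at 68.5 in S16 and at 87.2 to 131 in the others, and the part of both in the members' values was not tested. S5 had the highest score and the highest macrophage sum (478 RPKM), correlated least with its own group (mean r 0.901 over genes, 0.927 to 0.983 for the other libraries) and lay outside the range of all 14 other libraries for 4 of the 7 members. The share of all genes for which S5 did so was not counted, so this is not a trait of the members. Without S5 the AngII minus control differences of the members not yet given so were 0.33 for Agtr1a and -0.64 for Agtrap (unadjusted p = 0.0478 from limma).

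**Figure D3:**
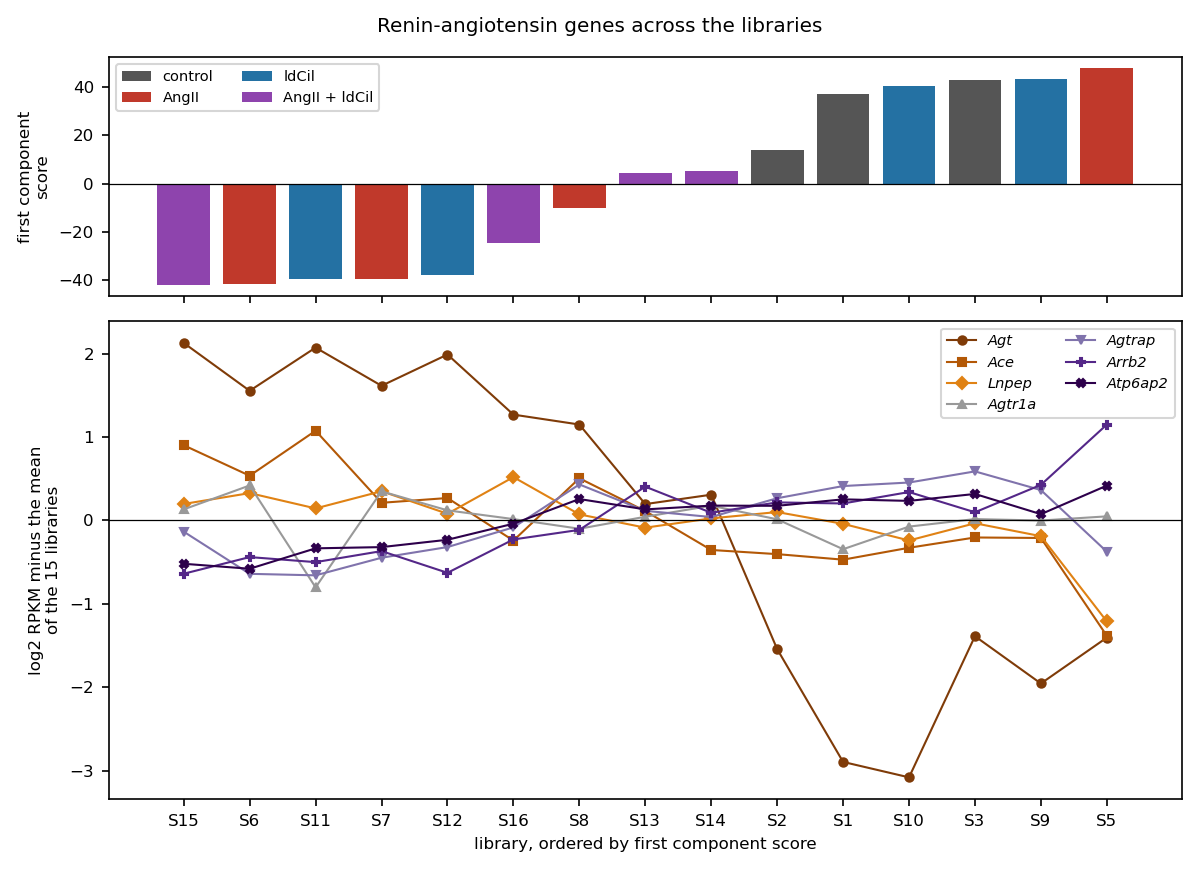
The upper panel shows the score of each library on the first principal component of all genes tested, coloured by group, and the lower panel the log2 RPKM of each member minus its mean over the 15 libraries, in the same library order. Agt, with a range of 5.21 log2 units, is highest toward the left, where Atp6ap2 and Arrb2 are lowest, and Agtr1a has its lowest value (0.42 log2 RPKM) in S11.

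The genes whose values were most like those of each member are given as a description, with Pearson's r over the 15 libraries, which share depth, normalisation and library differences. For Agtr1a these were Crat (r = 0.833, a carnitine acetyltransferase), Galt (0.798) and Pitpnm2 (0.789). For Ace they were Tmem185b (0.945), Otud1 (0.929) and Mat2a (0.928), for Agtrap Swi5 (0.934), Ak3 (0.934) and Sash1 (0.933), and for Atp6ap2 Rpl22l1 (0.962), Anxa3 (0.956) and Gm10073 (0.955). Lnpep was most like an unnamed gene, ENSMUSG00000109836.1 (0.984), then Alg10b (0.975) and Arid2 (0.973), and Arrb2 most like Snrpa1 (0.981), Ranbp1 (0.967) and Vps16 (0.962). With group means removed the leading value was 0.883 for Agtr1a and at least 0.942 for the first-placed gene of each other member. Agtr1a had the lowest likeness values of the 6.

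Around the members, the other enzymes and peptidases that make or break down angiotensins were thinly represented. Of 19 listed, 12 had a row and 11 were tested. Among those without a row were Ren1, Ren2, Ctsg, Cma1, Cpa3 and Klk1, so renin was not measured. With AngII, 2 of the 11 stood higher and 9 lower (median -0.16), and 1 had an unadjusted p under 0.05: Mcpt4, a mast cell chymase, at -0.84 (SE 0.393, unadjusted p = 0.0493, adjusted p = 0.782 from limma), and at -0.52 without S3 and -1.31 without S2. Among all genes 6.04% fell under the same unadjusted p and 53.7% stood higher (median 0.02). Enpep, which trims AngII to AngIII, and Ctsb, a lysosomal protease, had the next smallest p of the list, 0.160 and 0.168 unadjusted in limma. Among 7 related peptide receptors only Bdkrb2, Ednra and Ednrb had rows. Bdkrb2, a bradykinin receptor, read 2.15, 2.38, 1.54 and 3.12 log2 RPKM with AngII + ldCil and 3.85, 3.82, 4.53 and 2.59 with ldCil, a difference of -1.40 (SE 0.447, unadjusted p = 0.00712, adjusted p = 0.974 from limma). The endothelin receptors Ednra and Ednrb differed the other way in that comparison, by 0.79 and 1.42 (adjusted p = 0.974 for each from limma).

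Genes of receptor desensitisation and trafficking (G protein-coupled receptor kinases, Arrb1, caveolins, Rab proteins) were all measured, 16 of 16. With AngII 8 stood higher and 8 lower, the median was 0.02, and none had an unadjusted p under 0.05 in any of the 6 comparisons. The largest differences from control with AngII were those of Cav1 at 0.71 (SE 0.381) and Cav3 at 0.44 (SE 0.232), which encode caveolins, and Zbtb16, a binding partner of the AT2 receptor, gave 0.74 (SE 0.384) for AngII + ldCil against control. Subunits of the vacuolar proton pump, which Atp6ap2 serves, stood mostly below control, as Atp6ap2 did: 16 of 17 tested stood lower with AngII (median -0.15), 16 of 17 with ldCil (-0.23) and 15 of 17 with AngII + ldCil (-0.13), while 53.7%, 50.3% and 58.4% of all genes stood higher in the same comparisons. The counts against control share the same control libraries and are not independent of each other. Whether the 17 genes vary together was not tested. With AngII + ldCil, 11 of 17 stood higher than with AngII (median 0.06) and 13 of 17 higher than with ldCil (0.10). Of all genes 52.4% and 57.0% stood higher in these comparisons. All these are counts of small differences, and in each comparison with control a single gene of the 17 reached an unadjusted p under 0.05. It was Atp6v1a with AngII (-0.63, SE 0.267, unadjusted p = 0.0339 from limma) and Atp6ap1, the other accessory protein, with ldCil (-0.29) and with AngII + ldCil (-0.27, and -0.17 without S16). Atp6v1a differed within each treated group. With AngII it read 4.98 to 5.32 log2 RPKM in S5 to S7, and S8 lay among the control values. With ldCil it read 5.86 in S9 and S10 but 4.99 and 5.40 in S11 and S12. With AngII + ldCil it read 5.91 and 6.04 in S13 and S14 but 5.21 and 5.42 in S15 and S16. Atp6v0e2 was 0.54 higher with AngII + ldCil than with AngII (SE 0.248, unadjusted p = 0.0453 from limma), and 0.25 higher without S16.

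Among 17 genes known to respond to AngII in heart cells, all of them tested, 7 stood higher and 10 lower with AngII than in control (median -0.08), and 0 had an unadjusted p under 0.05, beside the 6.04% of all genes called and the 53.7% higher. Nppa and Nppb, the natriuretic peptide genes, differed by -0.06 and -0.10 log2, Rcan1, a calcineurin target, by 0.19 (SE 0.183), and Rgs2, which limits Gq signalling, by 0.55 (SE 0.468). Against control, AngII + ldCil gave Tgfb1 -0.43, Ccl2 -3.63 and Il6 -2.95 (unadjusted p = 0.0298, 0.0368 and 0.0464 from limma, adjusted p = 0.849 for each) and Myh7 0.96 (unadjusted p = 0.0494, and 0.43 without S16). That is 3 lower and 1 higher of the 17, beside 5.62% of all genes. Ccl2 was -2.50 without S16 (unadjusted p = 0.124 from limma). With ldCil alone Ccl2 read 9.25 log2 RPKM in S9 and S10 but 4.51 and 4.48 in S11 and S12, and Il6 5.7 and 5.6 but 0.29 and 1.05. Tgfb1 differed by -0.50 between AngII + ldCil and ldCil (SE 0.164, unadjusted p = 0.00832, adjusted p = 0.974 from limma). Downstream of AngII in the body lies aldosterone, and of 8 genes of the mineralocorticoid pathway 6 were tested, with Cyp11b2, which makes aldosterone, and Hsd11b2 without a row. Hsd11b1, which regenerates active glucocorticoid, measured 4.14 to 4.99 log2 RPKM with AngII against 3.62 to 3.97 in control (0.90, unadjusted p = 0.0491, adjusted p = 0.782 from limma). These groups did not overlap, as for 8.74% of all genes. With ldCil alone it read 3.5 and 3.75 in S9 and S10 but 4.5 and 4.80 in S11 and S12. With AngII + ldCil it read 4.02, 3.92, 4.06 and 2.16, the last in S16, and stood 1.14 below AngII (log2 difference -1.14, SE 0.387, unadjusted p = 0.0105, adjusted p = 1.00 from limma). Without S16 that difference was -0.68 (SE 0.279, unadjusted p = 0.0297 from limma). Lcn2 had -6.84 for AngII against control (SE 2.75, unadjusted p = 0.0255 from limma), but its libraries split within groups. It read 5.67 to 8.67 log2 RPKM in control, and with AngII 7.01 in S5 and -2.04 to -1.0 in S6 to S8. With ldCil, without AngII, it read 8.3 in S9 and S10 but -1.23 and -2.24 in S11 and S12. Lgals3 had -0.62 between AngII + ldCil and ldCil (unadjusted p = 0.0884 from limma). Of the 18 list gene differences in pairwise comparisons with an unadjusted p under 0.05 from limma, 3 kept it with each single library of their groups left out: Bdkrb2 and Tgfb1 for AngII + ldCil against ldCil and Hsd11b1 for AngII + ldCil against AngII. The fits with libraries left out were added for the list genes after their values were seen. The plot of the related gene lists shows most points within 1 log2 unit of 0 and every list median but that of the endothelin and bradykinin receptors within 0.2 of it.

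**Figure D4:**
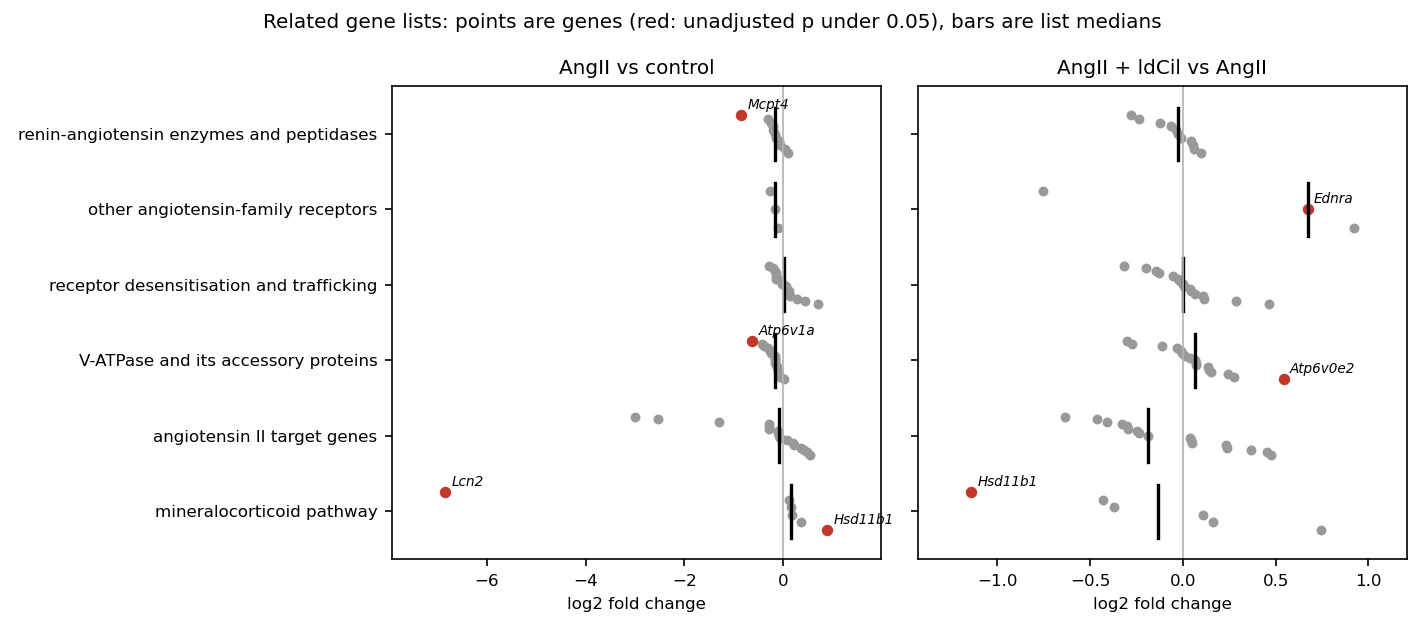
Log2 fold changes (horizontal axis) of the tested genes in 6 lists around the renin-angiotensin members for AngII against control (left) and AngII + ldCil against AngII (right); points are genes, red with an unadjusted p under 0.05, and vertical bars list medians. The medians lie between -0.17 and 0.17 on the left. On the right the median of the 3 related receptors is 0.67, the value of Ednra, with Ednrb at 0.92 and Bdkrb2 at -0.75.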

How the data were processed

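Poly(A)-captured RNA of cultured cardiomyocytes was sequenced in 15 libraries. The submitters' processing notes name HISAT2, HTSeq and GRCm38 (mm10); versions, annotation and strandedness were not given in the sources used here. Per the file, the authors deposited log2 RPKM values after conditional quantile normalisation. Counts were not used here, so the depth is unknown and no counting interval is given. The log2 scale was read from the values. Columns outside the 15 libraries held only words of gene descriptions. Gene identifiers were matched to GENCODE M21 (14329 of 14337, 12695 with the same version).

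Limma 3.58.1 in R 4.3.3 fitted 1 mean per group to all 15 libraries, with empirical Bayes moderation and a trend on mean expression, over the 12848 genes whose mean log2 RPKM was 0 or above. P-values are two-sided and were adjusted over all genes tested (Benjamini-Hochberg). The fit was tested on simulated data with noise drawn independently for each gene, so without the differences between libraries that many genes share here. At an adjusted p under 0.05 it recovered 56 of 100 changes of 1 log2 unit and 91 of 100 of 2 log2 units, with 6 false calls. Agt, below the filter, was compared with exact permutation tests, with p-values adjusted over its 5 comparisons.

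The members and lists were chosen with earlier results of these data known. Named were every member, the 3 genes of each pathway list with the smallest unadjusted p over the 5 pairwise comparisons, any list gene past an adjusted p of 0.05 or an unadjusted p of 0.01, the 3 genes most correlated with each member and the 3 highest of each marker list. Nppa, Nppb, Rcan1, Rgs2 and Myh7 were named after their values were seen. Alternatives covered the filter, an added 0.1 or 1 RPKM, scaling, the libraries fitted, moderation, library weights and each library left out.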

Additional observations from a re-analysis of the deposited data

Results flagged for a closer look

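The value of Agt in the AngII library S5, -3.00 log2 RPKM, and that of Ace in the same library, 2.36 log2 RPKM, lay far from the other 3 AngII libraries. The gap to the nearest of these was 0.846 of the group's whole range for Agt and 0.831 for Ace, above Dixon's critical value of 0.829 for 4 libraries. Such gaps were examined in 21 groups of 4 libraries (7 members, 3 groups), of which these 2 passed, and chance marks about 1 group in 20. In the other AngII libraries Agt ran from -0.45 to 0.02 and Ace from 3.96 to 4.28. Lnpep in S5, at 3.87, fell just short of the critical value with 0.822, and Arrb2, at 2.95, reached 0.795.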

How the results depend on the processing

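Filters, an added 0.1 or 1 RPKM, median centring, quantile normalisation and the choice of moderation left every count of called members as it was among the 6 tested, though the filter at a mean of 2 log2 RPKM removed Agtr1a and Arrb2. Without a filter Agt was fitted as well, and passed an unadjusted p of 0.05 from limma for AngII against control (0.0412) and for AngII + ldCil against control (0.0276). Weighting each library by its scatter changed the counts most: for AngII against control 6, 6 and 6 members passed an unadjusted p of 0.05, of 0.01 and an adjusted p of 0.05, for AngII + ldCil against control 2, 1 and 1, for AngII + ldCil against AngII 4, 2 and 4, and for the interaction 3, 2 and 2. At an adjusted p of 0.05 these weights also passed 6245, 2311, 4048 and 2387 of all genes in the same order. Under an unadjusted p of 0.05 they passed 55.5%, 32.7%, 44.9% and 36.4% of all genes, and under 0.01 5252, 2378, 3469 and 2482 genes. Fitting only the groups compared gave 1 member (Agtrap) at 0.05 and 1 at 0.01 for AngII + ldCil against control, beside 1378 and 380 of all 12848 genes. With single libraries left out the counts for AngII against control ran from 0 to 2 at 0.05, beside 2.08% to 12.8% of all genes, the highest share without S5. At 0.01 they ran from 0 to 1, beside 40 to 281 of all genes. For ldCil against control they ran from 0 to 1 at 0.05, with 1 without S10, where 4.31% of all genes were called. For the interaction they ran from 0 to 1 at 0.05, with 1 without S8, S9 or S10, where 7.22%, 5.17% and 5.35% of all genes were called. For AngII + ldCil against control Agt gave 0.64 with 1 RPKM added (exact permutation p = 0.0857), 2.82 without S5 and S16 (p = 0.1, the smallest possible) and 2.44 to 3.19 with single libraries left out, where smaller groups can no longer pass 0.05. Against AngII it was -0.56 without S5 and S16 and -0.46 to 0.54 with single libraries left out.

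Signs turned as follows, and the cause was not tested. With library weights: Lnpep 0.32 (AngII against control), Agtr1a 0.18 and Arrb2 0.10 (ldCil against control), Arrb2 0.00349 (AngII + ldCil against control), Ace -0.39, Atp6ap2 0.47, Lnpep -0.29 and Arrb2 0.53 (against AngII), Ace 0.10 and Agtrap -0.27 (against ldCil), and Lnpep -0.13 (interaction). With quantile normalisation: Agtr1a 0.0597 (interaction). Without S5 and S16: Lnpep 0.24 (AngII against control), Ace -0.20, Atp6ap2 0.14, Lnpep -0.21 and Arrb2 0.26 (AngII + ldCil against AngII), Ace 0.0184, Atp6ap2 -0.00565 and Arrb2 0.0429 (against ldCil), and Lnpep -0.15 (interaction). With single libraries left out, the ranges that crossed 0 were Arrb2 -0.48 to 0.0504 and Lnpep -0.28 to 0.24 for AngII against control, Agtr1a -0.20 to 0.12 and Lnpep -0.12 to 0.0033 for ldCil against control, Ace -0.31 to 0.33, Arrb2 -0.32 to 0.21, Atp6ap2 -0.18 to 0.15 and Lnpep -0.0865 to 0.43 for AngII + ldCil against AngII, Ace -0.36 to 0.19, Agtrap -0.18 to 0.19, Arrb2 -0.18 to 0.18 and Atp6ap2 -0.0881 to 0.15 against ldCil, and Agtr1a -0.21 to 0.12, Arrb2 -0.0663 to 0.48 and Lnpep -0.0268 to 0.49 for the interaction. Agtrap kept a negative difference for AngII against control, from -0.91 to -0.55. No paired analysis was possible because the labels number the libraries through the whole series, so that groups share no number, and tie none to a shared preparation. Since counts were not used, the precision of low values such as those of Agt is unknown.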
